A study of Mus musculus with 16 samples.

Results

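The 7 genes described here write, copy or remove the methyl group on cytosine in DNA: the methyltransferases Dnmt1, Dnmt3a and Dnmt3b, the hemimethyl-DNA binding protein Uhrf1, and the dioxygenases Tet1, Tet2 and Tet3. They were chosen by name and were found through the annotation of the array platform. That annotation gave 19 probe sets to the 7 genes, of 34958 probe sets with a single gene symbol, which stood for 18194 genes. Each gene is described by its brightest probe set, judged by average log2 value across all 16 arrays. Its other probe sets are read beside it in part of the comparisons.

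RNA from cells sorted directly from mouse bone marrow was hybridised to 16 one-colour Affymetrix arrays, with labelled cRNA made from 4000 to 7000 cells a sample. All mice were on the C57Bl6 background and are labelled female. Haematopoietic stem cells (HSC), the self-renewing cells from which blood is formed, came from 4 groups of 3 arrays: young wild type mice of 9 to 12 weeks, old wild type mice of 24 months, mid-aged mice of 32 weeks with the genotype Polgtm1Lrsn+/+, called mid-aged wild type below, and mutator mice of 32 weeks with the genotype Polgtm1Lrsn-/-. Common lymphoid progenitors (CLP), the marrow cells that give rise to B and other lymphoid cells, came from wild type mice of 8 to 12 weeks and were sorted as Ly6D- and Ly6D+, with 2 arrays each. The Polgtm1Lrsn allele is a germline change that removes proofreading from the catalytic subunit of the mitochondrial DNA polymerase, so mutations of mitochondrial DNA build up in every tissue and not in HSC alone. The labels call the replicates biological but do not say whether a sample was 1 mouse or a pool, so the p-values below measure the spread between these samples. The design asks how HSC of mutator mice compare with those of their age-matched controls, and how both compare with HSC of young and old mice.

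DNA methylation at CpG sites is copied after each round of replication, when Uhrf1 binds the half-methylated daughter duplex and brings in Dnmt1, which methylates the new strand. Dnmt3a and Dnmt3b place methyl groups on sites that had none, and the TET enzymes oxidise 5-methylcytosine, after which the base is lost by dilution or by excision repair. In blood, loss of Dnmt1 from HSC impairs their self-renewal, while loss of Dnmt3a or Tet2 enlarges the HSC pool in mice, and mutations of DNMT3A and TET2 are frequent in the expanded blood clones of older people.

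On mouse assembly GRCm38.p6 the genes lie on 7 different chromosomes: Dnmt1 at chr9:20907206-20959888, Uhrf1 at chr17:56303337-56323486, Dnmt3a at chr12:3801559-3914443, Dnmt3b at chr2:153649411-153687730, Tet1 at chr10:62804570-62887469, Tet2 at chr3:133463677-133545136 and Tet3 at chr6:83362373-83457208. RefSeq promoter windows of this build, each running from 250 bases before to 50 bases after an annotated transcript start, were at hand for all 7 genes, 12 windows in all. Since Dnmt1 and Uhrf1 act in S phase, the windows were searched on both strands for 4 spellings of the site bound by E2F factors, which drive S-phase genes: TTTCCCGC, TTTGGCGC, TTTCGCGC and TTTGCCGC. A match was present in 744 of 32851 windows of the whole table, 2.26%. Among the 12 windows, 2 held a match, 1 of Dnmt1 and 1 of Uhrf1, the pair that copies methylation. All 4 spellings hold a CpG, and both matching windows held 33 CpG dinucleotides, where 11.7% of all windows held 30 or more. The share with a match among windows as rich in CpG was not analysed, so the 2.26% is not a like baseline.

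The Dnmt1 window with its matches (chr9:20952574-20952873, minus strand), the Uhrf1 window with its match (chr17:56304063-56304362, plus strand), and the windows of the 2 genes called lower in old HSC, Dnmt3b (chr2:153649199-153649498, plus strand) and Tet1 (chr10:62887275-62887574, minus strand), are printed 5′ to 3′ in the sense of the gene, with the E2F-type matches in capitals.
Dnmt1: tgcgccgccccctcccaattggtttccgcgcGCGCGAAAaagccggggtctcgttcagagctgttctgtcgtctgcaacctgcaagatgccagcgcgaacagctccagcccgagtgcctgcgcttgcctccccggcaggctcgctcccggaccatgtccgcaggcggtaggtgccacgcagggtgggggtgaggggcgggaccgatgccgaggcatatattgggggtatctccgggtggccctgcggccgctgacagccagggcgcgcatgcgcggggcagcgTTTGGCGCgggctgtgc
Uhrf1: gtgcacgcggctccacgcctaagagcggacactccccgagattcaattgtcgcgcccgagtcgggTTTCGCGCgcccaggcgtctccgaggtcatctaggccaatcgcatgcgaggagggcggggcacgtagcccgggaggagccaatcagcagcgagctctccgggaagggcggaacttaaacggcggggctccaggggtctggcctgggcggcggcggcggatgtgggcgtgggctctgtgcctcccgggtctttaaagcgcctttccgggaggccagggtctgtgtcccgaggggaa
Dnmt3b: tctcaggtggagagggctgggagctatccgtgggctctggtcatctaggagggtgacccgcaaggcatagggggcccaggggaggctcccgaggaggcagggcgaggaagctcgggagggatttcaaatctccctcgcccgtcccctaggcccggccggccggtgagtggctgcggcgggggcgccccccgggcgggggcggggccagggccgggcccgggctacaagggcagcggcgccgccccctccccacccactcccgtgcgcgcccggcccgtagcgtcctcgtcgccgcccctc
Tet1: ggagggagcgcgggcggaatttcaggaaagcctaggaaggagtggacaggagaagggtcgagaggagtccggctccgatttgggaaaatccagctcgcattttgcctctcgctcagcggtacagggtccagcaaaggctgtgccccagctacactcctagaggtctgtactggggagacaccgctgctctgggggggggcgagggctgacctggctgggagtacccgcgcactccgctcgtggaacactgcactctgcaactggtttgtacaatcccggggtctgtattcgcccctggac
In the Dnmt1 window the TTTCGCGC match read on the opposite strand and began 219 bases before the start, and TTTGGCGC lay 34 to 41 bases into the transcript, counting the start as base 1. In the Uhrf1 window TTTCGCGC began 185 bases before the start. The Dnmt3b and Tet1 windows, like those of Dnmt3a, Tet2 and Tet3, held none of these 4 spellings. The windows of the 7 genes held 2 to 57 CpG dinucleotides, 11 of 12 above the median of 7 over all windows. The 4 printed windows held 33, 33, 30 and 17 in the order given. These matches describe letters of the genome, and no binding or methylation was measured here.

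The arrays differed in ways that touch the comparisons below. The log2 ratio of 3′ to 5′ signal of the beta-actin control probe sets, which grows as RNA is broken or amplified in short pieces, was 2.39 to 2.61 in young HSC, 2.20 to 2.27 in old HSC and 2.11 to 3.85 in CLP, but 4.24 to 5.26 in the 6 mid-aged arrays. The bioB hybridisation control, a spiked-in transcript, read 263 to 511 in young and old HSC, 1810.4 and 2162 on the replicate 1 arrays of both mid-aged groups, and 2434 to 3364 in CLP. Xist, transcribed from the inactive X chromosome, read 9.12 to 16.8 and the Y-linked Eif2s3y 423 to 758 on mid-aged wild type replicate 3 and on all 4 CLP arrays, against 3507 to 11022 and 6.85 to 12.7 on the other 11 arrays, although every sample is labelled female. Young replicates 2 and 3 were closer to each other (r = 0.996 over the genes tested on the 16 arrays) than any other pair of replicates (0.923 to 0.990). Markers of the labelled cells were present: the summed intensity of 7 HSC markers was 5761 to 19531 in the HSC groups and 987 to 1921 in CLP, and that of 8 lymphoid progenitor markers was 16565 to 28734 in CLP and 167 to 397 in HSC. Polg itself read 113 to 163 in mid-aged wild type and 65.9 to 125 in mutator HSC, which checks nothing, since the allele leaves the transcript in place.

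**Figure D1:**
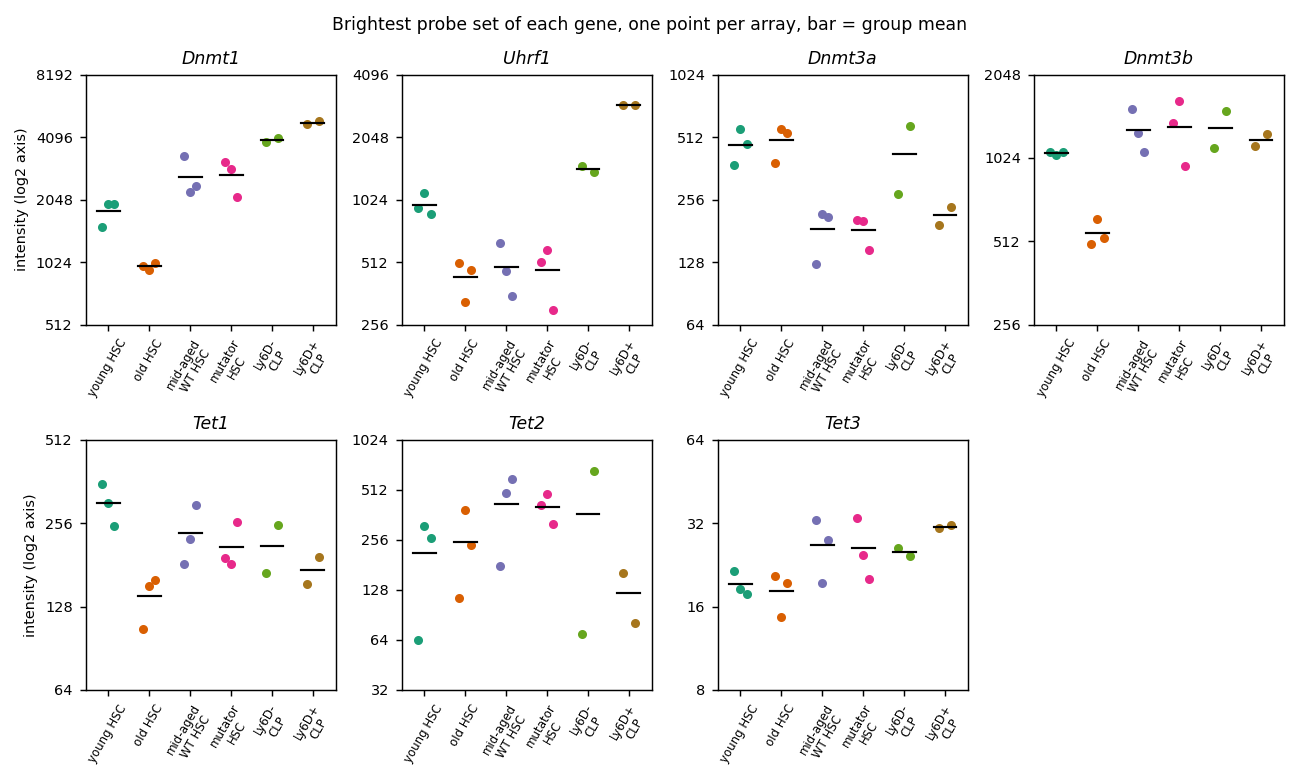
Intensity of the brightest probe set of each gene on every array (log2 axis), by group, with 1 point per array and a bar at the group mean. Dnmt1 and Uhrf1 are highest on the Ly6D+ CLP arrays, and Dnmt1, Uhrf1, Dnmt3b and Tet1 are lower on all 3 old than on all 3 young HSC arrays.

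In old HSC 4 of the 7 genes read lower than in young HSC without overlap: Dnmt1, Uhrf1, Dnmt3b and Tet1 each lay below every young array on all 3 old arrays, while Dnmt3a, Tet2 and Tet3 overlapped. Groups did not overlap for 27.2% of the 13482 genes tested in HSC, and were lower without overlap for 13.2%. In limma fitted on the 12 HSC arrays, with p adjusted by the Benjamini-Hochberg method over all genes tested and called under 0.05, Dnmt3b and Tet1 were called lower, 2 of 7, where 0.252% of all genes were called lower and 1.31% called in either direction. With the young and old arrays fitted alone, all 4 were called lower, against 2.66% of all genes called lower and 7.37% called in either direction. In the 12-array fit none of the 7 was called with any single young or old array left out, or with young replicates 2 and 3 counted as 1 sample, where 0.653% to 0.846% of all genes were. In the fit of young and old arrays alone all 4 stayed called with those replicates counted as 1 sample and with each array left out in turn, except Tet1 without young replicate 2 (adjusted p = 0.0562). There 413 to 956 of the 13482 genes were called, against 994 with no array left out. These repeats were chosen after seeing the data. The same 4 were called with all 16 arrays in the fit, where 1.33% of all genes were called, and with array weights, where 13.9% were. The median log2 change of the 7 genes was -0.87, against -0.01 over all genes tested. In sorted bulk samples, fewer cells of a kind and less RNA per cell cannot be told apart, here and in every comparison below.

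Dnmt1, the enzyme that copies methylation onto the new strand, read 1512, 1960.3 and 1948 in the 3 young and 985, 937 and 1012 in the 3 old arrays with its brightest probe set, 1435122_x_at. Every old array lay below every young one, a log2 change of -0.87 ± 0.198 (limma adjusted p = 0.0626, and 0.00668 with the young and old arrays fitted alone). Its 2 other probe sets had changes of the same sign, -0.82 (1447877_x_at) and -0.65 (1422946_a_at), with adjusted p of 0.203 and 0.327 when each probe set was tested as a row of its own, and 0.0114 and 0.0207 on the young and old arrays alone. The mean of its probe sets was called lower in the 12-array fit (-0.78, adjusted p = 0.0283), where 1.51% of all genes were called with such means.

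Uhrf1, which guides Dnmt1 to half-methylated sites, read 928, 1097 and 877 in young and 506, 328 and 469 in old HSC with probe set 1415810_at. The highest old array stood well below the lowest young one. The log2 change was -1.14 ± 0.274 (limma adjusted p = 0.0779, and 0.00805 with the young and old arrays alone), and the dimmer probe set 1415811_at gave -0.81 ± 0.223 (adjusted p = 0.167, and 0.0222 on the young and old arrays alone). The mean of the 2 probe sets was called lower in the 12-array fit (-0.97, adjusted p = 0.00221).

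Dnmt3b, a de novo methyltransferase, read 1074, 1053 and 1079 in young and 499, 616 and 525 in old HSC with probe set 1449052_a_at. The young arrays were almost alike and the old arrays stood at a similar low level, with no overlap. It was called lower, with a log2 change of -0.95 ± 0.201 (limma adjusted p = 0.0457, and 0.00218 with the young and old arrays alone), and its other probe set, 1418351_a_at, gave -1.03 ± 0.278 (adjusted p = 0.153, and 0.0144 on the young and old arrays alone). In the 12-array fit the call was lost when any single young or old array was left out (log2 change -1.04 to -0.89, adjusted p 0.0900 to 0.215).

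Dnmt3a, the other de novo enzyme, gave different answers by probe set. Its brightest, 1423063_at, read 377, 557 and 473 in young and 386, 561 and 536 in old HSC, with wide overlap (log2 change 0.07 ± 0.24, 95% interval -0.45 to 0.60, limma adjusted p = 0.9996). Probe set 1423066_at read 138, 213 and 193 in young and 68.5, 81.5 and 30.1 in old HSC, without overlap, a log2 change of -1.43 ± 0.3 (adjusted p = 0.0526 over all probe sets, and 0.0395 on the young and old arrays alone). The other 3 Dnmt3a probe sets gave -0.43 (1423064_at), -0.85 (1423065_at) and -0.27 (1460324_at), none of them called (lowest adjusted p 0.109, on the young and old arrays alone). Which Dnmt3a transcripts each probe set reads was not analysed here.

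Tet1, which starts the removal of methylation, read 356, 304 and 249 in young and 106, 151 and 160.1 in old HSC with probe set 1429448_s_at, whose suffix marks probes shared by more than a single transcript. No old array reached the lowest young array, and Tet1 was called lower with a log2 change of -1.04 ± 0.222 (limma adjusted p = 0.0476, and 0.0134 with the young and old arrays alone). Its next probe set, 1455425_at, did not follow. It read 296, 636 and 492 in young and 328, 480.4 and 355 in old HSC, overlapping, with a log2 change of -0.23 ± 0.413 (adjusted p = 0.9998). Within the young and old groups 1455425_at was the brighter one, with means of 475 and 388 against 303 and 139 for 1429448_s_at. Of its remaining probe sets 1419896_at gave -0.30 ± 0.295, and 1419897_at lay at or below the 40th percentile of its array on all 16 arrays. The Tet1 call was lost without any single young or old array (log2 change -1.17 to -0.88, adjusted p 0.0843 to 0.229), and the mean of all Tet1 probe sets gave -0.39 (adjusted p = 0.441).

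Tet2, the TET enzyme most tied to blood disease, varied widely within groups. Probe set 1438781_at read 63.9, 311 and 263 in young and 115, 388 and 239.8 in old HSC, and replicate 1 was the lowest in both groups. The log2 change of 0.30 ± 0.579 had a 95% interval of -0.97 to 1.57, and 1455300_at gave 0.09 ± 0.249. Tet3 read 21.6, 18.5 and 17.8 in young and 20.6, 14.7 and 19.4 in old HSC, close to the 40th percentile of the arrays (16.6 to 21.3), and no difference was detectable at that brightness (log2 change -0.05 ± 0.167).

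Other measures differed between the same young and old arrays. All 17 S phase and mitosis genes tested, of 18 listed, had a negative log2 change in old HSC (median -0.79), with 1 called lower in the 12-array fit, the replication helicase subunit Mcm5 (-0.99 ± 0.204, adjusted p = 0.0403), and 9 called lower on the young and old arrays alone, led by Mcm5, Mcm3 (-0.72) and Mcm2 (-0.71). The summed intensity of this list was 22728 to 29546 in young and 13979 to 17195 in old HSC, without overlap. Markers of 8 neutrophil genes were all negative too, with sums of 1319.8 to 5718 in young and 171 to 1555 in old HSC, which overlapped. None of the 8 was called in the 12-array fit, and 1 was called lower in the fit of young and old arrays. Of 7 macrophage markers 1 was called lower in the 12-array fit and 5 in the fit of young and old arrays. They summed to 266 to 579 in young and 150.1 to 198 in old HSC, and C1qa, C1qb, C1qc and Mrc1 lay at or below the 40th percentile on every old array. The 4 erythroid markers tested were negative, with none called in the 12-array fit and 1 called lower in the other. The sums over the 5 matched were 473 to 504 in young and 178 to 295 in old HSC. The 4 lymphoid progenitor markers tested were negative, with none called in either fit. The sums over the 8 matched were 274 to 314 in young and 167 to 242 in old HSC, without overlap. Il7r, Ebf1 and Rag1 lay at or below the 40th percentile on every array of both groups. The 7 HSC markers tested were all positive, with 3 called higher in the 12-array fit and 4 in the fit of young and old arrays. Their sums were 11791 to 13533 in young and 15699 to 19531 in old HSC, without overlap. The beta-actin 3′ to 5′ ratios of the 2 groups, given above, did not overlap either. The part of these differences in the lower Dnmt1, Uhrf1, Dnmt3b and Tet1 levels was not tested.

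Among the partners of maintenance methylation, 6 of 8 had a negative log2 change in old HSC and none was called in the 12-array fit. On the young and old arrays alone 4 of the 8 were called lower, led by the DNA ligase Lig1 (-0.93 ± 0.133, adjusted p = 0.00693), the chromatin remodeller Hells (log2 change with a 95% interval of -1.36 to -0.64, adjusted p = 0.00936) and the sliding clamp Pcna (-0.57 ± 0.114, adjusted p = 0.0245). Of 9 tested genes that supply methyl donors, 7 were negative and none was called in the 12-array fit, while 4 were called lower and 1 higher on the young and old arrays alone, with the mitochondrial folate enzyme Mthfd2 first (-0.88 ± 0.0975, adjusted p = 0.00218). In the list of base excision after TET or deamination, 1 of 10 was called, and it was higher: Gadd45g, a stress-response gene whose family has been tied to demethylation, with a log2 change of 2.42 ± 0.337 (adjusted p = 0.00356). None of 6 methyl-CpG readers, 5 readers of unmethylated CpG or 7 cofactors of the de novo and TET enzymes was called in either fit (medians 0.10, -0.05 and 0.13).

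**Figure D2:**
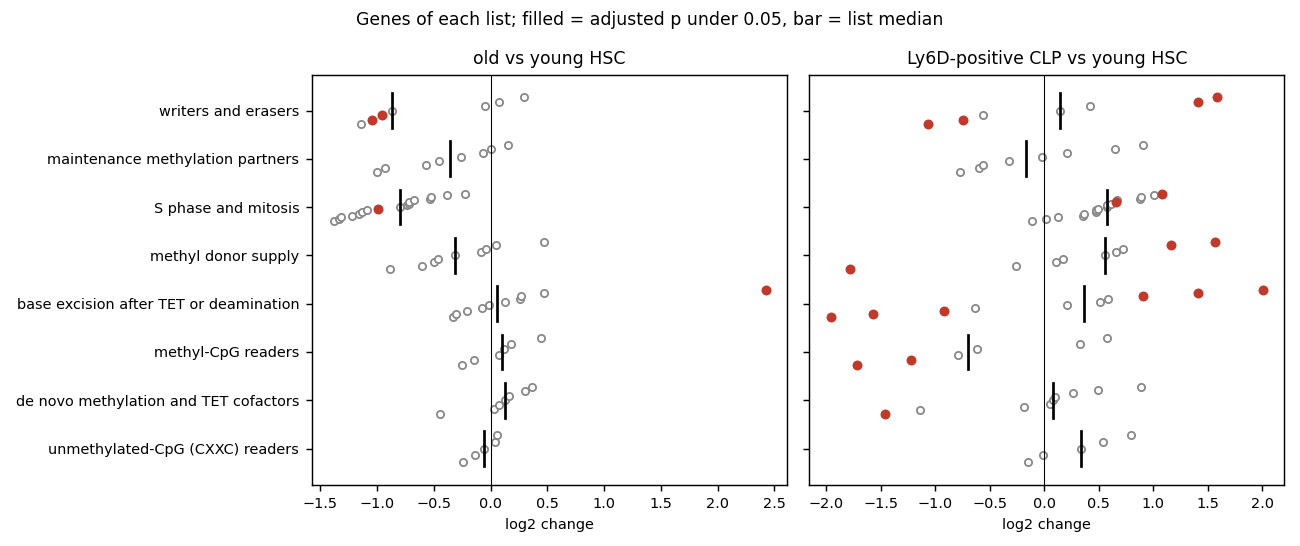
Log2 change of each tested gene of the 7 writers and erasers and of 7 lists of partner genes, for old against young HSC (left) and Ly6D+ CLP against young HSC (right); filled points passed an adjusted p of 0.05 and bars mark list medians. All 17 S phase and mitosis genes lie below 0 in old HSC and 16 of 17 lie above 0 in Ly6D+ CLP.

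Mid-aged wild type HSC of 32 weeks were set against the same young arrays: Dnmt3a and Uhrf1 were called lower, 2 of 7, and Dnmt1 was higher without overlap on its brightest probe set, but not called. In this comparison 24.2% of all genes tested were called, 17.7% lower and 6.42% higher, and groups did not overlap for 38.3%. With mid-aged wild type replicate 3 left out, the library whose Xist and Eif2s3y go against its label, 1 of 7 was called lower, Dnmt3a, against 14% of all genes called lower and 18.7% in either direction. Of the 7 HSC markers 3 were called lower here and none higher, 2 lower without replicate 3, and their sums were 5761 to 9458 in mid-aged wild type HSC, below all young arrays. The mid-aged arrays also carry the higher beta-actin 3′ to 5′ ratios, so age and these array differences cannot be told apart.

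Dnmt3a read 125, 218 and 212 in mid-aged wild type HSC with 1423063_at, all below the lowest young array of 377, a log2 change of -1.29 ± 0.24 (limma adjusted p = 0.00331). Without replicate 3 it was -1.40 ± 0.268 (adjusted p = 0.00686), and the call held under every alternative tried. Probe set 1423066_at was lower too (-1.20 ± 0.3, adjusted p = 0.015), but 1423064_at (0.01), 1460324_at (-0.21) and 1423065_at (-0.52) were not called. Within the same arrays, 2 probe sets of Dnmt3a were thus called lower and 3 were not called. Uhrf1 read 636, 463 and 350.4, below all young arrays, a log2 change of -1.01 ± 0.274 (adjusted p = 0.0204), and 1415811_at was called lower too, from 112, 151 and 147 to 11.2, 27.7 and 35.2 (-1.94 ± 0.223, adjusted p = 3.73e-04). Of these 3 mid-aged values 1 lay at or below the 40th percentile of its array, so the size of that change is uncertain. The Uhrf1 call on the brightest probe set was lost after quantile normalization (-0.70, adjusted p = 0.160), without young replicate 1 (-1.04, adjusted p = 0.0523), young replicate 2 (-0.92, 0.0775) or mid-aged wild type replicate 3 (-0.81, 0.0739), and with young replicates 2 and 3 counted as 1 sample (adjusted p = 0.0591).

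The Dnmt1 probe sets contradicted each other in the mid-aged arrays. With 1435122_x_at, mid-aged wild type HSC read 3321, 2222 and 2381, above every young array (log2 change 0.53 ± 0.198, limma adjusted p = 0.0732). With 1447877_x_at they read 1695, 976 and 989 against 639.7, 746 and 741 in young HSC (0.72 ± 0.24, adjusted p = 0.0494 over all probe sets). With 1422946_a_at they read 313, 493 and 236 against 946, 1125 and 1139 in young HSC, a change in the opposite direction of -1.64 ± 0.226 (adjusted p = 8.73e-04). In the naming of this platform the suffix x marks probe sets with probes that may bind other sequences, and the suffix a marks probe sets common to several transcripts of the gene. No direction can be given for Dnmt1 in mid-aged against young HSC, since the mean over its probe sets was -0.13 and the brightest probe set was called higher after quantile normalization (0.76, adjusted p = 0.0339) and without mid-aged wild type replicate 2 (0.64, adjusted p = 0.0425). In old HSC and in both CLP groups the 3 probe sets had the same sign against young HSC.

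**Figure D3:**
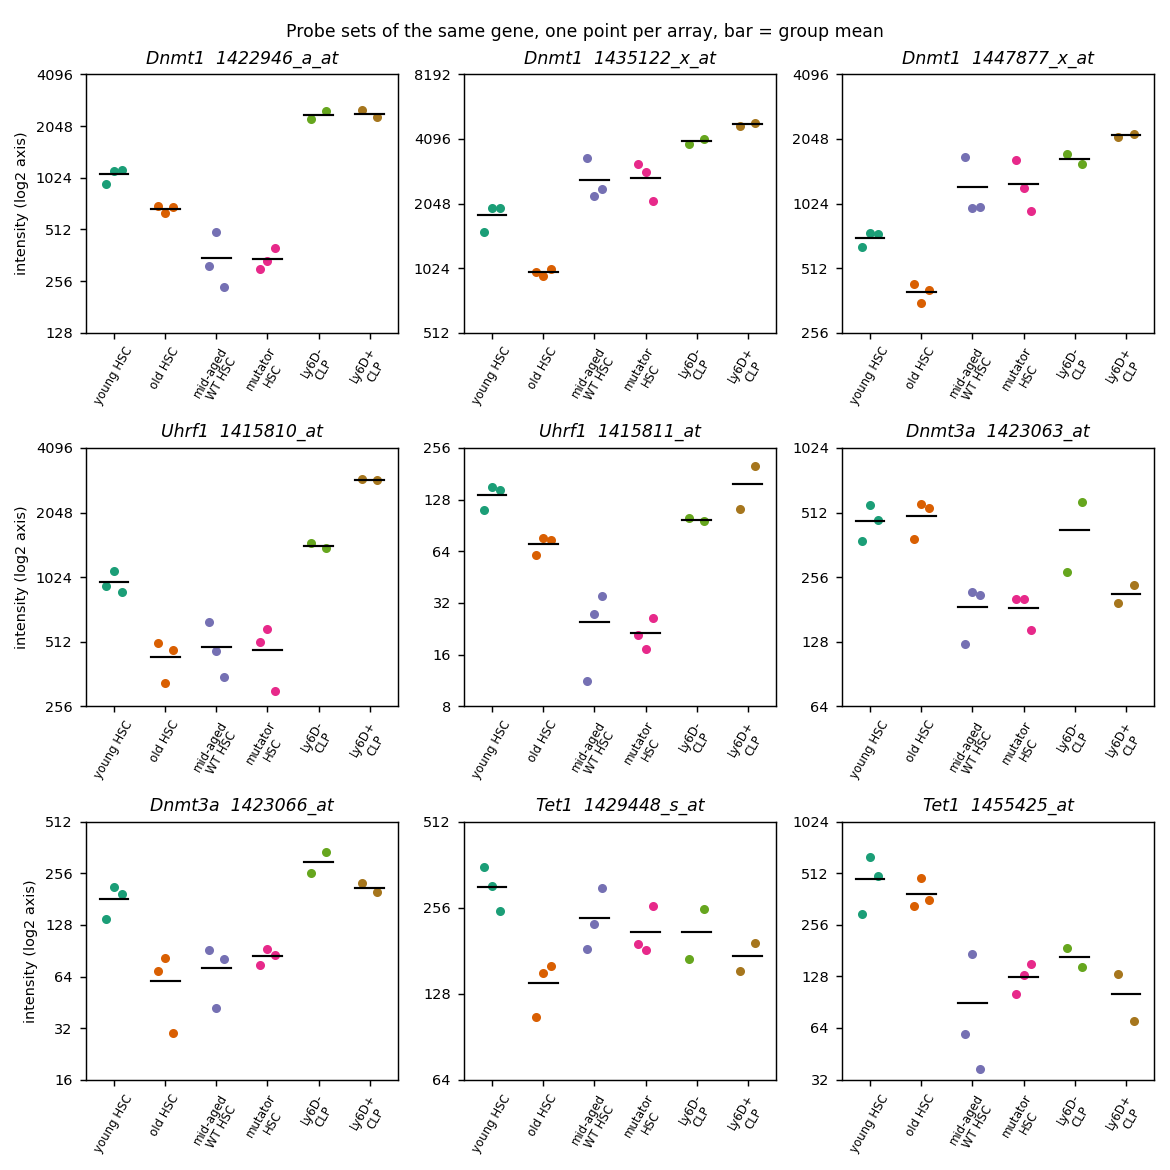
Intensity of 9 probe sets of Dnmt1, Uhrf1, Dnmt3a and Tet1 on every array (log2 axis), with 1 point per array and a bar at the group mean. For Dnmt1 the mid-aged arrays lie below the young ones with 1422946_a_at and above them with the other 2 probe sets.

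Dnmt3b read 1539.6, 1256 and 1078 in mid-aged wild type HSC, overlapping young HSC by a single array (log2 change 0.25 ± 0.201, adjusted p = 0.4). Tet1 with 1429448_s_at read 183, 224 and 299 and overlapped too (-0.36 ± 0.222, adjusted p = 0.282), whereas 1455425_at read 59.0, 173 and 36.8, all below young HSC (-2.37 ± 0.413, adjusted p = 0.00256). The mean of all Tet1 probe sets was called lower (-0.65, adjusted p = 0.0182). The brightest Tet1 probe set was thus the one that differed with old age and 1455425_at the one that differed at 32 weeks. Tet2 read 179, 489 and 592, with a log2 change of 1.01 ± 0.579 (adjusted p = 0.239), and Tet3 read 32.8, 19.4 and 27.9 (0.27 ± 0.167, adjusted p = 0.285).

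Of the maintenance partners, 5 of 8 were called lower in mid-aged wild type HSC, and all 8 were negative (median -1.35): the CpG-linked chromatin factor Cdca7 (-1.88 ± 0.266, adjusted p = 9.26e-04), Hells (-2.15 ± 0.426, 0.00452) and the Uhrf1 paralogue Uhrf2 (-1.52 ± 0.341, 0.00834) had the smallest p. Without mid-aged wild type replicate 3, 4 of the 8 were called lower. Of the S phase and mitosis genes, 4 of 17 were called lower, led by the ribonucleotide reductase subunit Rrm1 (-1.87 ± 0.295, adjusted p = 0.00149), and 3 of 17 without replicate 3. Among 10 excision genes 2 were called higher and 2 lower, with Gadd45a first (-2.40 ± 0.215, adjusted p = 1.26e-04). Without replicate 3 none was called higher and 2 lower. Of the cofactors 2 of 7 were called lower, with Idh2, an enzyme that makes the TET cosubstrate, at -2.48 ± 0.415 (adjusted p = 0.00203). Of the methyl-CpG readers 1 was called higher and 1 lower, Zbtb33 (-1.57 ± 0.224, adjusted p = 9.60e-04), and of the methyl donor genes 1 higher and 2 lower, with Mat2b at -2.34 ± 0.39 (adjusted p = 0.00199). None of 5 readers of unmethylated CpG was called. Without replicate 3 the counts of these last 4 lists were the same.

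Mutator HSC did not differ detectably from mid-aged wild type HSC in any of the 7 genes. None was called by limma, where 0% of the 13482 genes were called (984 had an unadjusted p under 0.05). On the brightest probe sets none lacked overlap, where 6.07% of all genes did. Dnmt1 read 3123, 2864 and 2105 in mutator HSC, overlapping the mid-aged wild type arrays given above, and the log2 change was 0.03 ± 0.198 (95% interval -0.40 to 0.47). Uhrf1 read 511, 586 and 302 (-0.06 ± 0.274, 95% interval -0.66 to 0.54). Dnmt3a read 203, 202 and 146 (0.01 ± 0.24, -0.51 to 0.54). On these brightest probe sets the changes of all 3 lay close to 0, but the intervals leave room for differences of up to -0.66 to 0.54 on the log2 scale. Dnmt3b read 1367, 1647 and 961 (0.02 ± 0.201, 95% interval -0.42 to 0.46). Tet1 read 191, 182 and 259 (-0.14 ± 0.222, -0.63 to 0.35). For Tet2, at 415, 482 and 318, the interval of -1.18 to 1.35 was the widest of the 7, and for Tet3, at 33.5, 24.6 and 20.1, it was -0.39 to 0.34. Some other probe sets lay further from 0. Tet1 1419896_at read 85.0, 89.9 and 75.3 in mutator and 31.3, 63.4 and 64.8 in mid-aged wild type HSC, without overlap (0.56 ± 0.295, limma adjusted p = 0.771). Tet1 1455425_at gave 0.65 ± 0.413, Dnmt3a 1460324_at 0.52 ± 0.262 and 1423064_at -0.41 ± 0.225, and Dnmt3b 1418351_a_at -0.43 ± 0.278. With each probe set as a row of its own, 0 of 24116 were called. The lowest adjusted p among the 7 brightest probe sets was 0.946, of Tet1. Without mid-aged wild type replicate 3 it was 0.887, of Uhrf1, when again none was called and 0.00742% of all genes were. No gene of the 7 partner lists was called with all arrays, and the genes of smallest p in the maintenance and S phase lists were Hells (1.24 ± 0.426, adjusted p = 0.607) and Mcm6 (0.30 ± 0.168, adjusted p = 0.769).

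The test of the difference itself, the mutator effect at 32 weeks minus the effect of old age, called none of the 7 genes, where 0.512% of all genes were called. On the brightest probe sets the differences of the 4 genes lower in old HSC were 0.90 ± 0.28 for Dnmt1 (adjusted p = 0.325), 1.08 ± 0.388 for Uhrf1 (0.455), 0.97 ± 0.284 for Dnmt3b (0.281) and 0.91 ± 0.315 for Tet1 (0.429). All 4 were positive, and they are not shown to differ between the comparisons at this threshold. Dnmt3a gave -0.06 ± 0.34 on its brightest probe set. Its other probe sets gave 1.66 ± 0.424 (1423066_at, limma adjusted p = 0.204), 1.16 ± 0.455 (1423065_at, 0.576), 0.79 ± 0.371 (1460324_at) and 0.02 ± 0.319 (1423064_at), none of them called. With arrays weighted by their quality, when 3.58% of all genes were called, 3 of the 7 were called: Dnmt1 (1.14, adjusted p = 0.0139), Dnmt3b (1.38, 0.0114) and Uhrf1 (adjusted p = 0.0385).

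**Figure D4:**
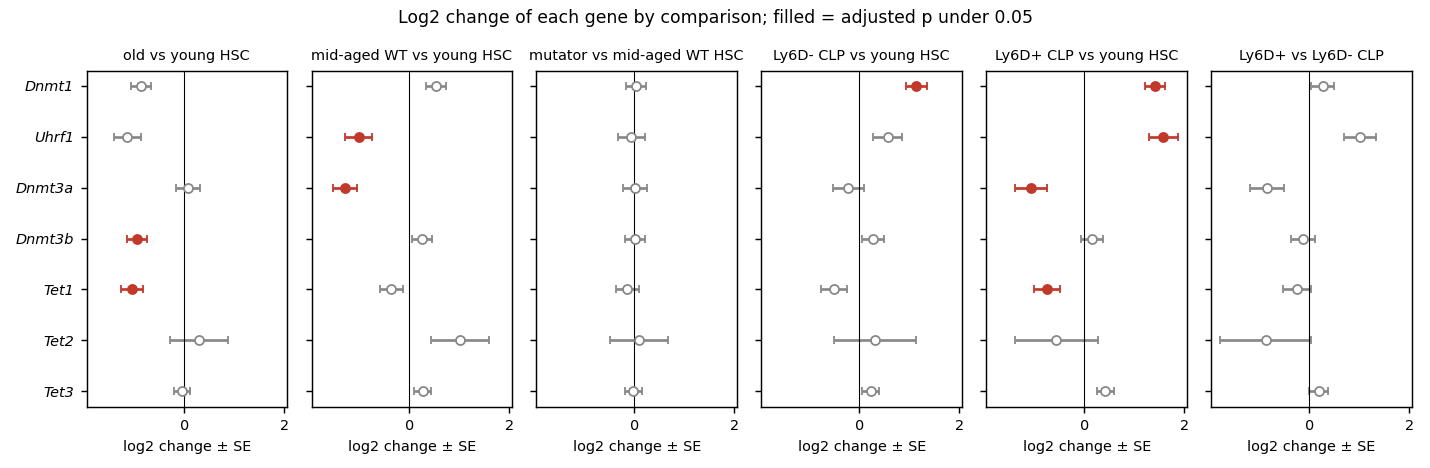
Log2 change ± SE of the brightest probe set of each gene in 6 comparisons, from limma fits; filled points passed an adjusted p of 0.05. The mutator changes lie between -0.14 and 0.09, and Dnmt1 is 1.14 and 1.41 higher on the log2 scale in Ly6D- and Ly6D+ CLP than in young HSC.

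Dnmt1, and Uhrf1 on its brightest probe set, averaged higher in both lymphoid progenitor groups than in any HSC group. On the dimmer Uhrf1 probe set, 1415811_at, Ly6D- CLP averaged below young HSC (97.7 against 136). Dnmt1 was called higher in Ly6D- CLP than in young HSC, 1 of 7 genes, where 24.4% of the 14344 genes tested on all 16 arrays were called, 9.55% higher and 14.9% lower. In Ly6D+ CLP Dnmt1 and Uhrf1 were called higher and Dnmt3a and Tet1 lower, 4 of 7, against 24.3% of all genes called, 10.4% higher and 13.9% lower. Both CLP comparisons use the same young HSC arrays as the comparisons of age, and the CLP arrays differ from them in Xist, Eif2s3y and the hybridisation controls as given above, so cell type and these differences cannot be told apart. With young replicates 2 and 3 counted as 1 sample, the Dnmt3a and Tet1 calls in Ly6D+ CLP were lost (adjusted p = 0.0756 and 0.0728).

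Dnmt1 read 3897 and 4074 in Ly6D- and 4729 and 4881 in Ly6D+ CLP, all above every HSC array. Against young HSC its log2 change was 1.14 ± 0.205 in Ly6D- CLP (limma adjusted p = 0.00145) and 1.41 ± 0.205 in Ly6D+ CLP (2.53e-04), and both calls held under every alternative tried. Its other probe sets were called higher in both as well, by 1.21 and 1.57 with 1447877_x_at and by 1.15 and 1.16 with 1422946_a_at. The 3 Dnmt1 probe sets were thus of 1 direction in CLP. In order of mean intensity the groups ran Ly6D+ CLP, Ly6D- CLP, mutator HSC, mid-aged wild type HSC, young HSC and old HSC, and of these neighbours only the 2 mid-aged groups overlapped on this probe set.

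Uhrf1 read 1479 and 1395 in Ly6D- and 2924 and 2913 in Ly6D+ CLP, the latter about alike and above all other arrays. It was called higher in Ly6D+ CLP than in young HSC (1.58 ± 0.285, adjusted p = 0.00135), under every alternative tried, and in Ly6D- CLP it was 0.57 ± 0.285 (adjusted p = 0.175). The second probe set did not show this: 1415811_at read 99.5 and 95.9 in Ly6D- and 113 and 201 in Ly6D+ CLP, with log2 changes of -0.41 ± 0.267 and 0.14 ± 0.267 against young HSC. By mean intensity Uhrf1 ran Ly6D+ CLP, Ly6D- CLP, young HSC, mid-aged wild type, mutator and old HSC, and the last 3 groups overlapped.

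Dnmt3a read 271 and 576 in Ly6D- and 194 and 235 in Ly6D+ CLP with 1423063_at. The Ly6D- pair differed from each other by more than the Ly6D+ pair did, and Dnmt3a was called lower in Ly6D+ CLP than in young HSC (-1.06 ± 0.315, adjusted p = 0.0255) but not in Ly6D- CLP (-0.22 ± 0.315, 0.682). The Ly6D+ call was lost with the mean of all probe sets (-0.28, adjusted p = 0.417) and without young replicate 2 (-0.93, 0.0890), young replicate 3 (-1.05, 0.0655), Ly6D+ replicate 1 (-0.93, 0.144) or Ly6D+ replicate 2 (-1.19, 0.0602). With 1 CLP array left, here and below, its spread is assumed to be that of the other groups. Probe set 1423066_at, at 256 and 339 in Ly6D- and 224 and 198 in Ly6D+ CLP, was not lower than in young HSC (0.67 and 0.22). By mean intensity of the brightest probe set Dnmt3a ran old HSC, young HSC, Ly6D- CLP, Ly6D+ CLP, mid-aged wild type and mutator HSC, with a gap only between the 2 CLP groups.

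Dnmt3b read 1109 and 1509.8 in Ly6D- and 1131 and 1244 in Ly6D+ CLP, slightly above young HSC (log2 changes 0.27 ± 0.224 and 0.15 ± 0.224, adjusted p = 0.43 and 0.688). Old HSC was the only group whose Dnmt3b arrays lay apart from every other group, while mutator HSC, both CLP groups and mid-aged wild type HSC overlapped in turn. Tet1 read 169 and 253 in Ly6D- and 154 and 193 in Ly6D+ CLP, and was called lower in the latter against young HSC (-0.75 ± 0.255, adjusted p = 0.0491). That call stood at the threshold and was lost without young replicate 1 (-0.63, 0.145), young replicate 2 (-0.74, 0.109), Ly6D+ replicate 1 (-0.60, 0.248) or Ly6D+ replicate 2 (-0.89, 0.0765). It was also lost after quantile normalization (0.0804) or median centring (0.0579), with a pseudocount of 1 (0.0599), no filter (0.0568) or a filter at the 60th percentile (0.0513). The same was so with each probe set as a row (0.0560), with trend and robust settings (0.0861), with array weights (adjusted p = 0.170) and with the replicate block (0.0688). The probe set 1455425_at was lower in both CLP groups, at 187 and 144 and 133 and 70.1, with log2 changes of -1.38 ± 0.457 (adjusted p = 0.0484) and -2.05 ± 0.457 (0.00646), while 1419896_at was called higher in Ly6D- CLP (1.23 ± 0.355, 0.0261). With the brightest Tet1 probe set all neighbours in the order of means overlapped, from young HSC at the top to old HSC at the bottom. The order was different with 1455425_at. There old HSC, with a mean of 388, came next after young HSC (475), and mid-aged wild type HSC (89.4) was lowest.

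Tet2 read 69.2 and 666 in the 2 Ly6D- and 163 and 81.2 in the 2 Ly6D+ CLP arrays, a spread within Ly6D- CLP wider than that of any other group, and neighbouring groups in the order of Tet2 means all overlapped. The dimmer Tet2 probe set 1455300_at gave 0.51 ± 0.283 and 0.47 ± 0.283 against young HSC, not called. Tet3 read 26.1 and 24.3 in Ly6D- and 30.7 and 31.4 in Ly6D+ CLP, both above the 3 young arrays but still near the background of the arrays (log2 change 0.42 ± 0.172 in Ly6D+ CLP, adjusted p = 0.0979).

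Between the 2 CLP groups none of the 7 genes was called, where 2.68% of all genes were, and 4 of 7 did not overlap, as was so for 35.2% of all genes with 2 arrays a side. Uhrf1 went from a mean of 1437 in Ly6D- to 2918 in Ly6D+ CLP, with a log2 change of 1.01 ± 0.313 (limma adjusted p = 0.128). It passed the threshold without the mid-aged arrays in the fit (adjusted p = 0.0304), where 4.55% of all genes were called. With the mean of its 2 probe sets it did so too (0.78, adjusted p = 0.0208), where 2.41% were called. Dnmt3a was lower by the log2 change -0.84 ± 0.345 (adjusted p = 0.296) and passed the threshold without Ly6D- replicate 1 (-1.36, adjusted p = 0.0446). That value rests on 1 Ly6D- array and the spread of the other groups. Dnmt1 (0.27 ± 0.225, 95% interval -0.22 to 0.75) and Tet3 (0.19 ± 0.188) were higher on both Ly6D+ arrays, with adjusted p of 0.718 and 0.787. For Dnmt3b, Tet1 and Tet2 the 2 groups overlapped, with 95% intervals of -0.65 to 0.41, -0.85 to 0.36 and -2.82 to 1.08.

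Neutrophil markers summed to 4578 to 7884 in Ly6D- and 1827 to 2373 in Ly6D+ CLP, with S100a9 and Lcn2 at or below the 40th percentile on both Ly6D+ arrays, and the part of these transcripts in the differences was not tested. The S phase and mitosis list summed to 30846 to 34089 in Ly6D- and 33541 to 40450.3 in Ly6D+ CLP, each above the young HSC arrays. Against young HSC, 16 of 17 of its genes were positive in Ly6D+ CLP (median 0.58) and 2 were called higher, Mcm6 (0.66 ± 0.177, adjusted p = 0.0159) and the survivin gene Birc5 (1.08 ± 0.363, 0.045), while 1 was called in Ly6D- CLP, Mcm6 (0.82 ± 0.177, 0.00446). Of the maintenance partners none of 8 was called in Ly6D+ CLP, and 2 were called lower in Ly6D- CLP, the replication timing factor Rif1 (-1.52 ± 0.386, adjusted p = 0.012) and Uhrf2 (-1.17 ± 0.387, 0.0422). Between the CLP groups the single call among all partner lists was Parp1, a sensor of DNA breaks in the excision list, higher in Ly6D+ CLP (0.95 ± 0.203, adjusted p = 0.0239).

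The excision list had 3 genes called higher and 3 lower of 10 in Ly6D+ CLP against young HSC, and 2 higher and 1 lower in Ly6D- CLP, with Parp1 (2.01 ± 0.185 and 1.05 ± 0.185) and Gadd45a (-1.96 ± 0.267 and -2.45 ± 0.267) the clearest in both. Methyl-CpG readers were called lower, 2 of 6 in Ly6D+ and 3 of 6 in Ly6D- CLP, with Zbtb38 at -1.72 and -1.41 and Zbtb33 at -1.22 and -1.73. Among 9 methyl donor genes 2 were called higher and 1 lower in each CLP group, the higher ones Shmt1 and Shmt2, serine hydroxymethyltransferases that feed the folate cycle (1.16 and 1.57 in Ly6D+ CLP), and the lower one Mat2b (-1.78). Of 9 cofactors tested 1 was called lower in Ly6D+ CLP, Idh1 (-1.46 ± 0.442, adjusted p = 0.0278), and none in Ly6D- CLP, and none of 5 readers of unmethylated CpG was called in either.

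For the 5 genes with a called change, the 3 genes whose log2 values over the 16 arrays correlated best with each were listed as a description. They were Rpgrip1, Cmc2 and Pold1 for Dnmt1 (Pearson r of 0.953, 0.949 and 0.947), Pclaf, Fgf13 and Deaf1 for Uhrf1 (0.946, 0.910 and 0.910), and Smg1, Vps54 and Kctd12b for Dnmt3a (0.913, 0.910 and 0.907). For Dnmt3b they were Cdca8, Naa16 and Kif22 (0.879, 0.864 and 0.862), and for Tet1 Kctd14, Cd86 and Dna2 (0.810, 0.752 and 0.748). The likeness was weakest for Tet1. Among the 7 genes themselves the closest pair was Dnmt1 and Dnmt3b (r = 0.820), with Dnmt1 and Uhrf1 at 0.661, Dnmt1 and Dnmt3a at -0.52, and Dnmt3b and Tet1 at 0.440. The 16 points share groups of arrays, so these values restate the group levels and carry no test. Each of the genes entered by its brightest probe set alone. For Dnmt1 the direction of that probe set in mid-aged against young HSC was contradicted by another Dnmt1 probe set, as given above. The Dnmt1 correlations and its list of similar genes therefore hold for the brightest probe set only. Correlations with the other probe sets were not analysed here.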

How the data were processed

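Biotin-labelled cRNA was hybridised to Affymetrix arrays, and the deposited table held 1 linear intensity per probe set and array for 45101 probe sets, as deposited by the authors; how probe signals were summarised and scaled, and with which software, is not stated in the labels. Probe sets were named from the platform annotation given with the series. Intensities were analysed as log2(intensity + 16), with the brightest probe set per gene. HSC comparisons used genes above the 40th percentile of the array on at least 3 of 12 HSC arrays (13482 genes), and CLP comparisons on at least 2 of 16 arrays (14344 genes); all 7 genes passed both. Group means were fitted in limma 3.58.1 (R 4.3.3) with eBayes and Benjamini-Hochberg adjustment over all genes tested, called under 0.05. On simulated arrays 89% of log2 changes of 1 were recovered for old against young HSC, 86% for mutator against mid-aged wild type and 91% for Ly6D- CLP against young HSC. The simulated spread and share of changed genes need not match these data, so the percentages are not the power of the tests above. In the data, Uhrf1 at -1.14 in old HSC was not called in the 12-array fit (limma adjusted p = 0.0779). The number of arrays limits the precision.

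The genes and the partner lists were chosen with earlier results of these data known. All 7 genes were described with every probe set in old against young HSC. In the other comparisons the brightest probe set was given for every gene, and the other probe sets for part of them. In each partner list up to 3 genes past the threshold with the smallest adjusted p were named, or the gene of smallest p where none passed. Of 116 listed symbols 107 were matched, and the others were not analysed here. Alternatives covered scaling, pseudocount, filter, choice of probe set, eBayes settings, array weights, the replicate block, the arrays in the fit and single arrays left out.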

Additional observations from a re-analysis of the deposited data

How the results depend on the processing

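Of the results for single genes, 855 kept direction and side of the threshold under the alternatives tried, 51 lost a call, 22 gained one and 66 changed sign, and none of the 66 was called on either side. In old against young HSC, 2 of the 7 genes were called in the 12-array fit. The count was 1 after quantile normalization, median centring, a pseudocount of 64, eBayes with trend and robust settings, or the replicate block (1.1% to 1.61% of all genes called). It was 0 with a pseudocount of 1, no filter on dim genes, each probe set as a row, young replicates 2 and 3 as 1 sample (chosen after seeing the data), or any single array left out (0 to 0). In these settings 0.653% to 1.22% of all genes or probe sets tested were called. The count was 4 on the young and old arrays alone, by gene (7.37% of all genes called) or by probe set (5.05% of all probe sets, chosen after seeing the data). It was also 4 with all 16 arrays in the fit (1.33% of all genes called), and with array weights (13.9%, against 1.31% in the 12-array fit). It was 3 with the mean of all probe sets (1.51% of all genes called), where Dnmt1 and Uhrf1 were gained and Tet1 was lost. On the young and old arrays alone it was 3 to 4 with single arrays left out and 4 with young replicates 2 and 3 as 1 sample (both chosen after seeing the data). Among all genes 413 to 956 were called in these repeats, against 994 with no array left out. Array weights moved the difference of effects from 0 to 3 calls (3.58% of all genes, against 0.512%). In mid-aged wild type against young HSC, 2 calls became 1 with young replicates 2 and 3 as 1 sample, where 15.1% of all genes were called. They became 1 to 3 with single arrays left out, where 15.2% to 30.9% were, against 24.2% in the 12-array fit. In the same comparison quantile normalization left 2 calls, with Uhrf1 lost and Dnmt1 gained (22.7% of all genes called). The mean of probe sets added Tet1 (21.1%). In Ly6D- CLP against young HSC, 1 call became 2 with only these groups in the fit, where 29.3% of all genes were called. It was also 2 without the mid-aged arrays, where 31.6% were called, against 24.4% with all 16 arrays. In Ly6D+ CLP, 4 calls became 2 with young replicates 2 and 3 as 1 sample (18% of all genes called) and 2 to 3 with single young arrays left out (17.9% to 19.4%). They became 3 in the 9 settings, other than arrays left out or merged, that lost the Tet1 call (18.8% to 30.7% of all genes or probe sets tested were called). The mean of probe sets, which lost Dnmt3a, gave 3 as well (24.8% of all genes called). They became 5 without the mid-aged arrays, which added Tet3, where 31.7% of all genes were called, against 24.3% with all 16 arrays. Between the CLP groups, 0 calls became 1 with the mean of probe sets (2.41% of all genes called) or without the mid-aged arrays (4.55%). With the brightest probe set on all 16 arrays 2.68% were called.

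The sign changes were as follows, on the log2 scale, with ranges for single arrays left out. In old HSC, Dnmt3a was -0.58 with the mean of probe sets, -0.060 with array weights and -0.071 to 0.24 over arrays, Tet2 was -0.30 with weights and -0.34 to 0.73, and Tet3 was 0.019 with weights and -0.095 to 0.031. In mutator HSC, quantile normalization gave -0.022 for Dnmt1, -0.0065 for Dnmt3a and -0.026 for Dnmt3b, the mean of probe sets gave -0.20 for Dnmt3b and 0.24 for Tet1, and array weights gave -0.043 for Dnmt3a, -0.11 for Tet2 and 0.41 for Uhrf1. Without both arrays with high hybridisation controls (chosen after seeing the data), Dnmt3a was -0.30, Tet2 -0.44 and Uhrf1 0.064. The mutator ranges over arrays were -0.082 to 0.21 (Dnmt1), -0.22 to 0.16 (Dnmt3a), -0.15 to 0.23 (Dnmt3b), -0.29 to 0.037 (Tet1), -0.42 to 0.40 (Tet2), -0.15 to 0.082 (Tet3) and -0.26 to 0.22 (Uhrf1). Dnmt1 in mid-aged wild type against young HSC was -0.13 with the mean of probe sets. For the difference of effects, Dnmt3a was 0.71 with the mean of probe sets, 0.017 with weights and -0.30 to 0.086 over arrays, Tet2 was 0.19 with weights and -0.71 to 0.43, and Tet3 was -0.066 with weights and -0.11 to 0.13. Between the CLP groups the ranges were -0.34 to 0.096 (Dnmt3b), -0.51 to 0.024 (Tet1) and -2.37 to 0.63 (Tet2). In Ly6D- CLP against young HSC, Dnmt3a was 0.15 with the mean of probe sets and -0.74 to 0.30 over arrays, and Tet2 was -0.15 with weights and -1.19 to 1.81. In Ly6D+ CLP, Dnmt3b was -0.039 with the mean of probe sets. The cause of these changes was not tested.

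The replicate numbers of the labels were not used as pairs in the main fits. The deviations of same-numbered old and young arrays correlated at 0.509, 0.422 and -0.01. Those of mutator and mid-aged wild type arrays correlated at 0.329, 0.0772 and -0.06. In these comparisons 4 and 3 of 6 samples correlated best with their own number. The replicate 1 arrays of both mid-aged groups also shared a high bioB control (1810.4 and 2162). Whether same-numbered samples share a batch was not tested. With the replicate block, Tet1 was no longer called in old HSC (adjusted p = 0.0609) or in Ly6D+ CLP (0.0688). Over all alternatives the count of all genes called ran from 88 to 1879 for old against young HSC (176 in the 12-array fit), 0 to 222 for mutator against mid-aged wild type (0), 2031 to 5569 for mid-aged wild type against young HSC (3258), 26 to 483 for the difference of effects (69), 0 to 752 between the CLP groups (384), and 2339 to 5401 and 2566 to 5321 for Ly6D- and Ly6D+ CLP against young HSC (3503 and 3486). Neither scaling moved the median of all genes by over 0.1. With 2 or 3 arrays a group, and Tet3 near background, small differences were not detectable.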
